A study of Mus musculus with 6 samples.

Results

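The adenylyl cyclases form the family of enzymes described here, and 9 of its genes, Adcy1, Adcy2, Adcy3, Adcy5, Adcy6, Adcy7, Adcy8, Adcy9 and Adcy10, were followed among the 31253 genes measured. They were taken by gene symbol, and the family was selected on the measured level of Adcy8, which was lower in neurons and astrocytes after sevoflurane. The level of Adcy8 in neurons, in the neuron types and in astrocytes is therefore a description and carries no test, while the other members were tested. Hippocampal cells of old mice were profiled by droplet single-cell RNA sequencing 24 h after a 6 h exposure to 2% sevoflurane, an inhaled general anaesthetic, in 3 libraries (Sevoflurane 1 to 3), or to air in 3 libraries (Control 1 to 3). The labels give the tissue and the treatment. They state no strain, sex or genotype. They speak of 6 treated mice without tying each library to 1 mouse, so the spread that p-values rest on may be technical.

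Adenylyl cyclases make cyclic AMP (cAMP) from ATP and so pass signals from G protein-coupled receptors to protein kinase A, cAMP-gated channels and the transcription factor CREB. The membrane-bound forms are all activated by the stimulatory G protein and differ in their other inputs. ADCY1 and ADCY8 are stimulated by calcium and calmodulin, ADCY2 and ADCY7 by G protein beta and gamma subunits, and ADCY5 and ADCY6 are inhibited by calcium. ADCY3 is best known as the olfactory cyclase and is found in neuronal primary cilia, ADCY9 responds only weakly to the drug forskolin, and ADCY10 is a soluble enzyme activated by bicarbonate. In the hippocampus, the calcium-stimulated cyclases are known for their part in synaptic plasticity and memory.

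The libraries held 54426522 to 70741809 UMIs (unique molecular identifiers, 1 per captured transcript) in 7068 to 9795 barcodes, and 46876 cells were kept. Names come from marker genes and are short for neuron-like and so on. Clusters were named in 10 classes, of which 7 had at least 20 cells in every library, and 6 neuron types were tested within the neurons. Cajal-Retzius cells were named as well but fell below that limit, with 18 cells in Sevoflurane 3, and were not tested. Levels are CPM, UMI counts scaled as usual to the UMI total of the class in a library, with TMM factors, a scaling that sets most genes equal between libraries. Because UMIs were captured near the 3′ end, these levels are comparable for 1 gene between samples. One library stood apart by sex-linked genes. Ddx3y, a Y-linked gene, was at 0.317 CPM in Sevoflurane 1, against 44.4 to 58.2 CPM in the other 5 libraries. The X-linked gene Xist was at 1400 CPM in Sevoflurane 1, against 0.523 to 1.27 CPM in the other 5. By these genes Sevoflurane 1 is female and the other 5 libraries are male. Each call of a member below is therefore also given without Sevoflurane 1, and the calls of other genes as counts without it. Choroid plexus cells were few in the Sevoflurane libraries (0, 1 and 4) and more in the Control libraries (65, 19 and 100). The choroid plexus marker Ttr followed them, at 1.86 to 2.65 CPM over all cells in Sevoflurane and 71.4 to 441 CPM in Control libraries. Adcy8 had 17 UMIs in the 184 Control choroid plexus cells, 0.0924 a cell, below its 0.291 a cell in Control astrocytes.

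Each member had its own distribution over the cells, as seen in the Control libraries. Adcy1 was highest in dentate granule neurons, at 444 ± 38.1 CPM (SD, n = 3, as for all levels below), followed by retrohippocampal excitatory neurons at 218 ± 11.7 CPM, and the 2 ranges did not overlap. Adcy2 had its highest levels in dentate granule neurons (564 ± 31.4 CPM), CA1 pyramidal neurons (549 ± 41.2 CPM) and astrocytes (544 ± 64.3 CPM), whose ranges overlapped. Adcy2 was lower in CA3 pyramidal neurons, at 191 ± 15.7 CPM, and in Lhx6 lineage interneurons, at 170 ± 22.5 CPM. Adcy9 was highest in CA1 and CA3 pyramidal neurons, at 549 ± 21.9 and 537 ± 22.3 CPM, with overlapping ranges.

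Adcy8 differed between pyramidal fields, with 127 ± 17.7 CPM in CA1 and 18.1 ± 1.73 CPM in CA3. Its highest levels were in retrohippocampal excitatory neurons (256 ± 14.4 CPM) and Lhx6 lineage interneurons (210 ± 34.9 CPM), whose ranges overlapped. Astrocytes, Adarb2 lineage interneurons, oligodendrocyte precursors, microglia and dentate granule neurons followed at 87.8 to 97.3 CPM, each overlapping its neighbour in that order. Adcy7 was highest in microglia, at 105 ± 23.0 CPM, with at most 7.17 ± 1.09 CPM (Lhx6 lineage interneurons) elsewhere. Adcy5 was highest in oligodendrocytes, at 119 ± 1.53 CPM, then in their precursors at 90.22 ± 13.01 CPM, and lowest in astrocytes at 9.62 ± 2.16 CPM. Adcy6 was highest in endothelial cells (52.4 ± 7.42 CPM) and ependymal cells (48.2 ± 16.0 CPM), which overlapped. Adcy3 lay between 14.9 ± 3.06 CPM in endothelial cells and 59.8 ± 2.35 CPM in retrohippocampal neurons. Clusters were built without the 9 members, but from the same cells, so these orders are descriptions.

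**Figure D1:**
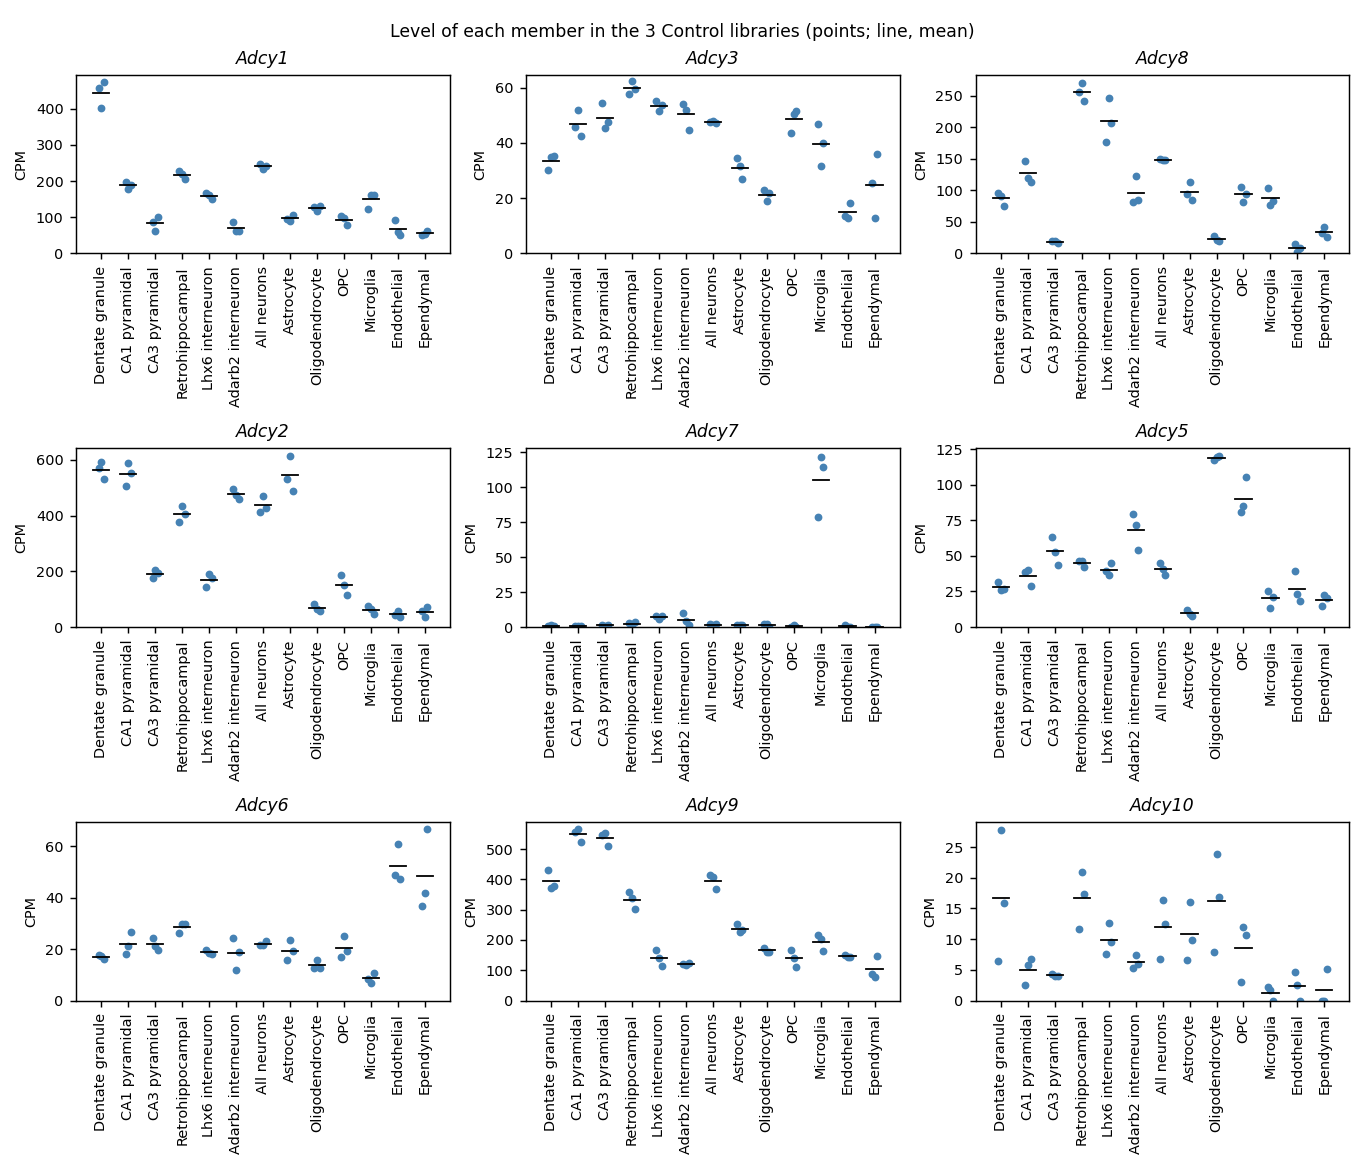
Level of each member (CPM, linear axes starting at 0, one panel a gene) in the 3 Control libraries of each class and neuron type; points are libraries and lines their means. Adcy7 stands at 105 CPM in microglia and at most 7.17 CPM elsewhere, and Adcy1 at 444 CPM in dentate granule neurons.

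Free RNA, which enters droplets from outside the captured cell, was not removed and sets a floor under these levels. In Control libraries, the 10 neuron markers stood in astrocytes at a median of 0.179 of their level in neurons (0.0868 to 1.26 by gene), in oligodendrocyte precursors at 0.207 (0.0972 to 1.06) and in microglia at 0.233 (0.13 to 1.82). Adcy8 stood at 0.655 of its neuronal level in astrocytes, 0.63 in oligodendrocyte precursors and 0.592 in microglia, above the medians but inside the range of single markers. Those ranges reach above the neuronal level itself, so a place inside them does not tell free RNA from RNA of the cells. Which of these the Adcy8 counts there are was not tested. Adcy8 stood at 0.154 in oligodendrocytes and 0.0576 in endothelial cells, below the marker medians of 0.2 and 0.111 there.

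Sequences of 2 members that the tests below called are shown to let their start regions be compared. They are the 250 bases before the RefSeq start on GRCm38.p6, in gene orientation, for Adcy2 at chr13:68999542-68999791 (minus strand) and Adcy9 at chr16:4420499-4420748 (minus strand). Capitals mark the CREB half-site TGACG, or CGTCA on the other strand.
Adcy2: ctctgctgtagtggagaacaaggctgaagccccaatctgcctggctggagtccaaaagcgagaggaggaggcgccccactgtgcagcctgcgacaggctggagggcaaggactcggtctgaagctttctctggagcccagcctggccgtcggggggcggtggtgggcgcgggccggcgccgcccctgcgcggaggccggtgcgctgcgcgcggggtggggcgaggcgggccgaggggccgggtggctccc
Adcy9: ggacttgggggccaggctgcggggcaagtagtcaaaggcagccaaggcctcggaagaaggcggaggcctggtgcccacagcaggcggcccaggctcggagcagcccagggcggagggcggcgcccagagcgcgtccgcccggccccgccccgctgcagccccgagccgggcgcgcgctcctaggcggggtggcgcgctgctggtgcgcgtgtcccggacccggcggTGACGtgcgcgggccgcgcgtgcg
Both stretches are rich in G and C, at 73.2% in Adcy2 and 78.8% in Adcy9. Adcy9 holds 1 half-site and Adcy2 holds no match in this window. Of 32851 promoter windows of this length in the table, 17.8% hold the half-site and 1.55% the full site TGACGTCA, which contains it. The table has entries for 7 of the 9 members, and Adcy8 and Adcy6 are not among them.

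Among the calcium-stimulated cyclases, Adcy8 was lower after sevoflurane in each of the 6 neuron types followed and in astrocytes by group mean. The lower level in neurons and astrocytes is the observation that chose the family. In astrocytes it stood at 49.2, 33.96 and 41.6 CPM in Sevoflurane libraries, against 93.6, 114 and 84.7 CPM in Control libraries. The groups did not overlap, as for 19.9% of all genes tested in astrocytes, and the log2 fold change (Sevoflurane over Control, as throughout) was -1.26 with a standard error (SE) of 0.16. Over all astrocytes Adcy8 had 0.127 UMIs a cell in Sevoflurane (242 UMIs, 1913 cells) and 0.291 in Control libraries (633 UMIs, 2175 cells). In neurons it stood at 105, 62.2 and 85.5 CPM in Sevoflurane libraries, against 149, 148 and 149 CPM in Control libraries. The Control libraries lay within 2 CPM of each other, while Sevoflurane 2 was the lowest and Sevoflurane 1 the nearest to Control. The groups were apart here too, as for 26.8% of all genes tested in neurons. Without Sevoflurane 1 the log2 fold change was -1.01 in neurons and -1.37 in astrocytes, with -0.82 and -1.26 over all libraries.

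Between neuron types the difference in Adcy8 on the log2 scale was largest in dentate granule neurons (log2 fold change -1.10, SE 0.20). They held 56.3, 30.1 and 36.4 CPM in Sevoflurane libraries and 96.5, 91.0 and 75.8 CPM in Control libraries. In CPM the difference was larger in retrohippocampal neurons, given below. The groups were apart, as for 24.5% of all genes tested there. These neurons fell into 2 clusters in which the groups held different shares of cells, and Adcy8 was lower in both. It averaged 53.9 ± 20.4 CPM in Sevoflurane and 93.9 ± 11.2 CPM in Control libraries in cluster 20, and 28.6 ± 7.18 CPM in Sevoflurane and 63.5 ± 11.8 CPM in Control libraries in cluster 21. Retrohippocampal neurons held 155 ± 26.8 CPM in Sevoflurane and 256 ± 14.4 CPM in Control libraries (log2 fold change -0.72), without overlap, as for 20.9% of all genes tested there. CA3 pyramidal neurons, where the gene is scarce, held 10.996 ± 0.34 CPM in Sevoflurane and 18.1 ± 1.73 CPM in Control libraries (-0.72). In CA1 pyramidal neurons the groups overlapped, at 124, 86.7 and 75.6 CPM in Sevoflurane and 147, 120 and 114 CPM in Control libraries (-0.41, SE 0.17). Lhx6 lineage interneurons held 149 ± 9.18 CPM in Sevoflurane and 210 ± 34.9 CPM in Control libraries (-0.49), without overlap, as for 17.5% of all genes tested there. Adarb2 lineage interneurons held 65.8 ± 26.0 CPM in Sevoflurane and 96.4 ± 23.5 CPM in Control libraries (-0.57), with overlap.

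**Figure D2:**
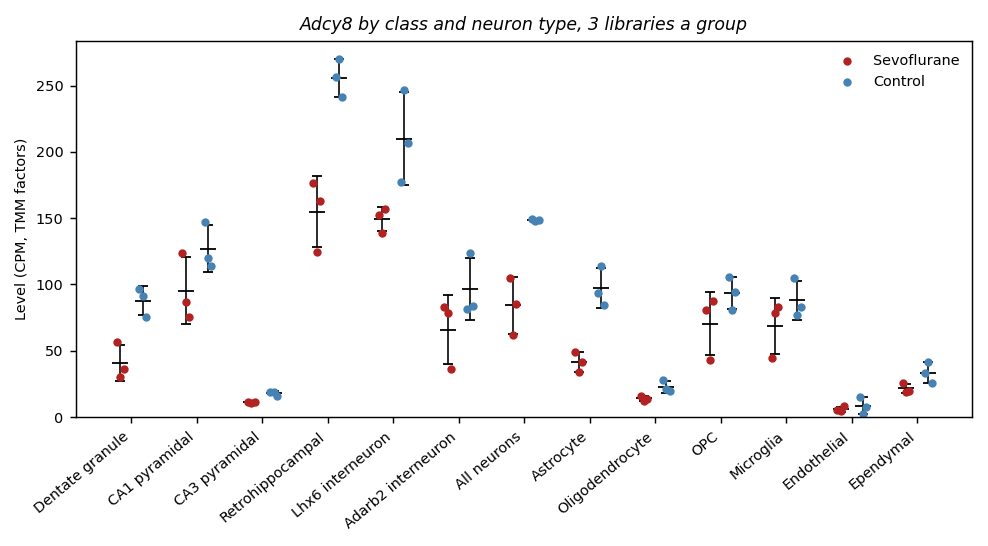
Adcy8 level (CPM, linear axis from 0) in each class and neuron type for Sevoflurane (red, left) and Control (blue, right); points are libraries, black marks are the mean and SD of 3 libraries. The groups do not overlap in astrocytes (33.96 to 49.2 CPM in Sevoflurane, 84.7 to 114 CPM in Control) and overlap in CA1 pyramidal neurons and microglia.

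Outside the cells that chose the family, Adcy8 could be tested in 3 classes and passed in none of them with edgeR's quasi-likelihood test. DESeq2 also called it in 0 of them, and its unadjusted edgeR p was under 0.05 in 1, the oligodendrocytes, where 0.482% of all genes tested were called. In oligodendrocytes it stood at 16.1, 12.4 and 13.9 CPM in Sevoflurane libraries and 28.1, 21.2 and 19.6 CPM in Control libraries. Every Sevoflurane library was below every Control library, a separation seen for 18.4% of all genes tested there, and the edgeR adjusted p was 0.18 (log2 fold change -0.69, SE 0.20). Its level there is also below the median neuron-marker ratio given above. In oligodendrocyte precursors the log2 fold change was -0.40 (SE 0.21) with an edgeR adjusted p of 0.49, and in microglia -0.36 (SE 0.24) with 0.71, both with overlapping groups. Endothelial and ependymal cells had too few Adcy8 UMIs for the filter on low counts.

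A gene on the strand opposite Adcy8, Gm21798, overlaps it. Gm21798 shares 104.603 kb of the 225.2 kb span of Adcy8 but no exon base, in the GENCODE M21 annotation, and whether reads were counted by strand is not given in the sources used here. Gm21798 was also the gene whose mean level over the 12 classes and neuron types was most like that of Adcy8 (Pearson r = 0.978 among 12297 genes compared). It differed by a log2 fold change of -0.48 in neurons (edgeR adjusted p = 0.15), -0.59 in astrocytes (0.425) and 0.04 in CA1 pyramidal neurons (0.963). Whether its reads are part of the Adcy8 counts was not tested. The next in likeness were Rbm28 (r = 0.912), Olfm3 (0.858), Gsdme (0.856) and Ano8 (0.845). Of these 5 genes, Olfm3, which encodes an olfactomedin family glycoprotein, passed in neurons, with a log2 fold change of -0.41 and an edgeR adjusted p of 0.047 (0.0599 without Sevoflurane 1).

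The other calcium-stimulated cyclase, Adcy1, did not pass in any class or neuron type with edgeR or DESeq2, and its unadjusted edgeR p was under 0.05 in ependymal cells and retrohippocampal neurons. In neurons it averaged 231 ± 4.8 CPM in Sevoflurane and 241 ± 7.8 CPM in Control libraries, with overlapping groups (log2 fold change -0.06, SE 0.05, edgeR adjusted p = 0.54). In dentate granule neurons, where it is highest, it averaged 440 ± 21.5 CPM in Sevoflurane and 444 ± 38.1 CPM in Control libraries. In retrohippocampal neurons it stood at 187, 174 and 199 CPM in Sevoflurane libraries and 229, 219.7 and 206 CPM in Control libraries, without overlap (log2 fold change -0.22, SE 0.08, edgeR adjusted p = 0.22). The groups were also apart in ependymal cells, which line the ventricles, in the other direction. There Adcy1 stood at 100.4, 99.8 and 101.4 CPM in Sevoflurane libraries and 51.3, 54.4 and 61.4 CPM in Control libraries (log2 fold change 0.86, SE 0.27, edgeR adjusted p = 0.215), and 14.9% of all genes tested in these cells did not overlap either. EdgeR called 0.567% of the genes tested there. With doublets kept, the log2 fold change of Adcy1 in ependymal cells was -0.011. Adcy3, the cyclase of primary cilia, stood at 39.995, 43.1 and 46.4 CPM in neurons of Sevoflurane libraries and 47.5, 47.8 and 47.2 CPM in those of Control libraries. The groups were separate by under 1 CPM, and the difference did not pass (log2 fold change -0.14, SE 0.07, edgeR adjusted p = 0.29).

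Of the beta-gamma-stimulated cyclases, Adcy2 fell in neurons and in astrocytes. In neurons it stood at 350, 341 and 331 CPM in Sevoflurane libraries, against 412, 472 and 427 CPM in Control libraries. The groups did not overlap, and the log2 fold change was -0.36 (SE 0.06, edgeR adjusted p = 0.0285). Adcy2 was the 1 member called among the 8 tested in neurons beside Adcy8, while 4.18% of the 18875 genes tested were called in either direction and 2.63% were called lower. In astrocytes Adcy2 stood at 356, 347 and 392 CPM in Sevoflurane libraries, against 532, 613 and 486 CPM in Control libraries. This was a log2 fold change of -0.58 (SE 0.13, edgeR adjusted p = 0.028), again without overlap. Adcy2 was also the 1 member called among the 7 tested in astrocytes beside Adcy8, against 2.02% of 12323 genes in either direction and 1.14% lower. Without Sevoflurane 1 the edgeR adjusted p of Adcy2 was 0.0493 in neurons and 0.0357 in astrocytes. The effect on Adcy2 in neurons minus that in astrocytes was 0.20 (SE 0.11, edgeR adjusted p of the interaction = 0.53), where 1.99% of genes were called.

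By neuron type, Adcy2 was called lower in dentate granule neurons, the cells that relay cortical input into the hippocampus. They held 356, 391 and 400 CPM in Sevoflurane libraries, against 570, 592 and 530 CPM in Control libraries. All Sevoflurane libraries lay below all Control libraries, with a log2 fold change of -0.56 (SE 0.07, edgeR adjusted p = 0.00886). The groups were also apart in each of the 2 granule neuron clusters, for which the share over all genes was not computed. Adcy2 averaged 388 ± 22.0 CPM in Sevoflurane and 561 ± 21.6 CPM in Control libraries in cluster 20, and 389 ± 24.4 CPM in Sevoflurane and 552 ± 45.7 CPM in Control libraries in cluster 21. Adcy2 was the 1 member called among the 8 tested there beside Adcy8, against 3.6% of 15469 genes in either direction. Without Sevoflurane 1 the value was -0.52 (edgeR adjusted p = 0.0138).

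Adcy2 did not pass with edgeR in the other 5 neuron types, while DESeq2 called it in retrohippocampal neurons. CA1 pyramidal neurons, with as much Adcy2 in Control libraries, held 532, 478 and 438 CPM in Sevoflurane and 506, 589 and 552 CPM in Control libraries, with overlap (log2 fold change -0.19, SE 0.09, edgeR adjusted p = 0.31). Retrohippocampal neurons held 315, 364 and 319 CPM in Sevoflurane and 378, 434 and 405 CPM in Control libraries, without overlap (log2 fold change -0.29, SE 0.09, edgeR adjusted p = 0.149). Lhx6 lineage interneurons held 173 ± 22.1 CPM in Sevoflurane and 170 ± 22.5 CPM in Control libraries. The difference between granule neurons and each other neuron type was tested as an interaction in edgeR with the library as a block, a test added after the values were seen. Granule neurons minus CA1 gave -0.39 (SE 0.10, edgeR adjusted p = 0.116), and granule neurons minus Lhx6 lineage interneurons -0.55 (SE 0.14, edgeR adjusted p = 0.143). None of the 5 pairs passed for Adcy2, although each had an unadjusted edgeR p under 0.05, between 0.000887 and 0.0353. Of all genes tested, 0.606% passed against CA1, 0.57% against CA3, 0.0245% against retrohippocampal neurons, 0.17% against Lhx6 and 0.0475% against Adarb2 lineage interneurons.

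Genes with long spans were more often lower in Sevoflurane libraries. This touches Adcy2 and Adcy8, whose spans of 379.5 kb and 225.2 kb are the longest of the members. The genes called lower in neurons had a median span of 194.6 kb, against 23.06 kb over all genes tested. After each library's trend with span was removed, Adcy2 kept its call in granule neurons (log2 fold change -0.37, edgeR adjusted p = 0.0222). It lost it in neurons (-0.16, 0.217) and in astrocytes (-0.41, 0.0767). The log2 fold change of Adcy8 became -0.67 in neurons, -1.15 in astrocytes and -0.95 in granule neurons, from -0.82, -1.26 and -1.10. In retrohippocampal and CA3 neurons it became -0.57 and -0.58, from -0.72 in each. Whether span has a part in the lower Adcy2 and Adcy8 counts was not tested beyond this. For Adcy2 in neurons, leaving out any library other than Sevoflurane 1 gave edgeR adjusted p values of 0.0642 to 0.0789. For Adcy2 in astrocytes, leaving out any Control library or Sevoflurane 2 gave 0.0599 to 0.161.

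Marker lists also differed between the groups, some lower and some higher in Sevoflurane libraries. In astrocytes their own 10 markers summed to 11620 to 14090 CPM in Sevoflurane and 14990 to 15780 CPM in Control libraries, and 1 of the 10 was called, higher. The summed level of the 10 neuron markers in astrocytes was 3058 to 3283 CPM in Sevoflurane and 3161 to 3501 CPM in Control libraries. The 8 oligodendrocyte precursor markers summed to 1347 to 1483 CPM in Sevoflurane and 1610 to 2029 CPM in Control libraries, and the 7 choroid plexus markers to 10.7 to 21.3 CPM in Sevoflurane and 164.5 to 1034 CPM in Control libraries. The 6 committed precursor markers summed to 299 to 342 CPM in Sevoflurane and 380 to 399 CPM in Control libraries. Of these lists in astrocytes, the neuron markers overlapped between the groups and the others did not. The ependymal and neuroblast lists went the other way there, also without overlap. The 7 ependymal markers summed to 37.71 to 46.35 CPM in Sevoflurane and 26.78 to 33.07 CPM in Control libraries. The 6 neuroblast markers summed to 47.63 to 57.38 CPM in Sevoflurane and 40.59 to 44.27 CPM in Control libraries.

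In neurons the 10 neuron markers summed to 16100 to 16630 CPM in Sevoflurane and 18420 to 19880 CPM in Control libraries, with 4 called lower. The astrocyte markers in neurons summed to 574.5 to 640.2 CPM in Sevoflurane and 691.3 to 754.9 CPM in Control libraries. In granule neurons the neuron markers summed to 12320 to 13260 CPM in Sevoflurane and 14610 to 15800 CPM in Control libraries, with 4 called lower. The astrocyte markers there summed to 1112 to 1187 CPM in Sevoflurane and 1349 to 1448 CPM in Control libraries, with 2 of 10 called lower. The groups did not overlap in any of these 4 sums in neurons and granule neurons. The 7 ependymal markers went the other way in neurons, at 28.21 to 35.85 CPM in Sevoflurane and 26.27 to 27.84 CPM in Control libraries. Of the 6 neuroblast markers in neurons, 2 were called higher, while their sums overlapped between the groups. The part of these markers, in astrocytes and in neurons, in the Adcy2 and Adcy8 values was not tested. With doublets kept, Adcy2 in astrocytes had an edgeR adjusted p of 0.109 (log2 fold change -0.48) and Adcy8 a log2 fold change of -1.04.

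**Figure D3:**
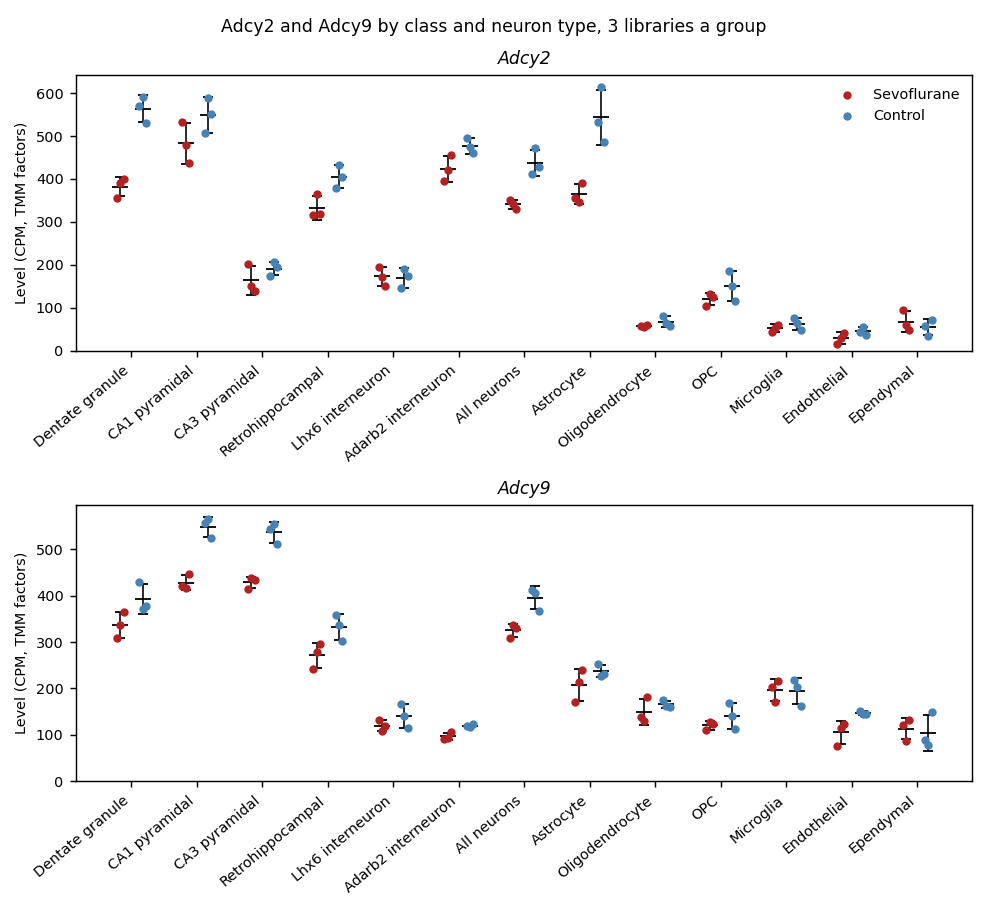
Adcy2 (upper) and Adcy9 (lower) level (CPM, linear axes from 0) by class and neuron type for Sevoflurane (red, left) and Control (blue, right); points are libraries, black marks the mean and SD of 3. Adcy2 is separate in dentate granule neurons (356 to 400 CPM in Sevoflurane, 530 to 592 CPM in Control), and Adcy9 in CA1 pyramidal neurons (417 to 448 CPM in Sevoflurane, 525 to 566 CPM in Control).

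Adcy7, the other beta-gamma-stimulated member, had its highest level in microglia. It stood there at 104, 86.4 and 111 CPM in Sevoflurane libraries and 78.9, 122 and 115 CPM in Control libraries. The groups overlapped, with a log2 fold change of -0.07 (SE 0.20, edgeR adjusted p = 0.96). None of the 7 members tested in microglia was called with edgeR, none had an unadjusted p under 0.05, and DESeq2 also called 0, while edgeR called 0.36% of all genes tested. Adcy7 was too scarce to be tested in astrocytes, in the oligodendrocyte lineage, in endothelial and ependymal cells and in CA1, CA3 and Adarb2 lineage neurons.

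The calcium-inhibited cyclases did not pass in any class or neuron type with edgeR or DESeq2. The unadjusted edgeR p of Adcy5 was under 0.05 in oligodendrocyte precursors and in granule and CA3 neurons. Adcy5 in oligodendrocyte precursors stood at 62.9, 66.2 and 61.4 CPM in Sevoflurane libraries and 80.7, 85.0 and 105 CPM in Control libraries. The groups did not overlap, as for 16.2% of all genes tested there, and the edgeR adjusted p was 0.251 (log2 fold change -0.49, SE 0.18). In oligodendrocytes, where Adcy5 is highest, it stood at 98.7, 135 and 181 CPM in Sevoflurane libraries and 117, 119 and 120 CPM in Control libraries. The Sevoflurane libraries spread to both sides of the Control libraries. Adcy6 in endothelial cells averaged 47.4 ± 17.5 CPM in Sevoflurane and 52.4 ± 7.42 CPM in Control libraries, with overlap.

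Adcy9 fell in CA1 pyramidal neurons, 1 of the 2 neuron types richest in it. It stood at 420, 417 and 448 CPM in Sevoflurane libraries, against 557, 566 and 525 CPM in Control libraries. The groups did not overlap, and the log2 fold change was -0.36 (SE 0.06, edgeR adjusted p = 0.0354). It was the member called among the 7 tested in CA1 neurons beside Adcy8, against 1.13% of 14834 genes in either direction. The groups were apart for 22.8% of those genes. In CA3 pyramidal neurons, Adcy9 stood at 415, 439 and 433 CPM in Sevoflurane libraries and 545, 554 and 512 CPM in Control libraries. This was nearly the same difference (-0.32, SE 0.06), with an edgeR adjusted p of 0.0586, where 0.714% of all genes tested were called. DESeq2 called Adcy9 in CA3 neurons and over all neurons as well as in CA1. Over all neurons the log2 fold change was -0.28 (SE 0.06, edgeR adjusted p = 0.0516).

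The CA1 result was narrow. Removing the trend with gene span (133 kb for Adcy9) gave an edgeR adjusted p of 0.0596, and leaving out any library but Sevoflurane 1 gave 0.0509 to 0.179. Without Sevoflurane 1 it was 0.0481. In CA1 neurons the 10 neuron markers summed to 16480 to 17630 CPM in Sevoflurane and 18590 to 20420 CPM in Control libraries, with 3 called lower, and their part in the Adcy9 values was not tested. The Adcy9 groups were also apart in retrohippocampal neurons, at 241, 278 and 295 CPM in Sevoflurane and 358, 337 and 302 CPM in Control libraries (log2 fold change -0.29, SE 0.10, edgeR adjusted p = 0.19). In astrocytes and microglia Adcy9 did not pass, with log2 fold changes of -0.18 (edgeR adjusted p = 0.58) and 0.01 (0.997).

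Adcy10, the soluble cyclase, was the member that rose. In oligodendrocyte precursors it stood at 52.7, 14.9 and 30.02 CPM in Sevoflurane libraries, against 3.10, 11.9 and 10.7 CPM in Control libraries. The 3 Sevoflurane libraries held 74 UMIs in 644 cells and the 3 Control libraries 16 UMIs in 499 cells. The groups did not overlap but the Sevoflurane libraries differed from each other more than 3-fold, and the log2 fold change was 1.91 (SE 0.47, edgeR adjusted p = 0.0492). Adcy10 was the member called among 8 tested, against 0.874% of 9384 genes in either direction and 0.0853% called higher. The call was lost without Sevoflurane 1 (log2 fold change 1.37, edgeR adjusted p = 0.259) and without 4 of the other libraries, and DESeq2 gave no adjusted p for it. The 8 markers of the precursors themselves summed to 12380 to 14450 CPM in Sevoflurane and 15720 to 17150 CPM in Control libraries, without overlap, and their part in the Adcy10 values was not tested.

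Over all libraries, the effect on Adcy10 in oligodendrocyte precursors differed from that in neurons. Neurons minus precursors gave an interaction of -1.54 (SE 0.40, edgeR adjusted p = 0.0376), where 0.442% of the genes tested were called. Without Sevoflurane 1 this was -1.16 (edgeR adjusted p = 0.593), and without any other library but Sevoflurane 2 the adjusted p was 0.0923 to 0.376. Astrocytes minus precursors gave -1.87 (SE 0.50) with an edgeR adjusted p of 0.0947, and oligodendrocytes minus precursors -1.66 (SE 0.44) with 0.166, where 0.534% and 0.209% of genes were called. In neurons as a whole Adcy10 averaged 15.6 ± 3.18 CPM in Sevoflurane and 11.9 ± 4.82 CPM in Control libraries, with overlap (log2 fold change 0.39, edgeR adjusted p = 0.49). That fold was 0.10 without Control 1 and 0.68 without Control 2. It was apart, without passing, in Lhx6 lineage interneurons, at 19.4, 18.1 and 16.5 CPM in Sevoflurane and 7.54, 12.7 and 9.57 CPM in Control libraries (0.86, SE 0.23, edgeR adjusted p = 0.134). The groups were also apart in CA3 neurons (6.62 ± 0.51 CPM in Sevoflurane, 4.13 ± 0.23 CPM in Control) and Adarb2 lineage interneurons (11.1 ± 2.09 CPM in Sevoflurane, 6.26 ± 1.07 CPM in Control). Of all genes tested, 17.5% did not overlap in Lhx6 lineage interneurons, 19.4% in CA3 neurons and 15.8% in Adarb2 lineage interneurons.

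**Figure D4:**
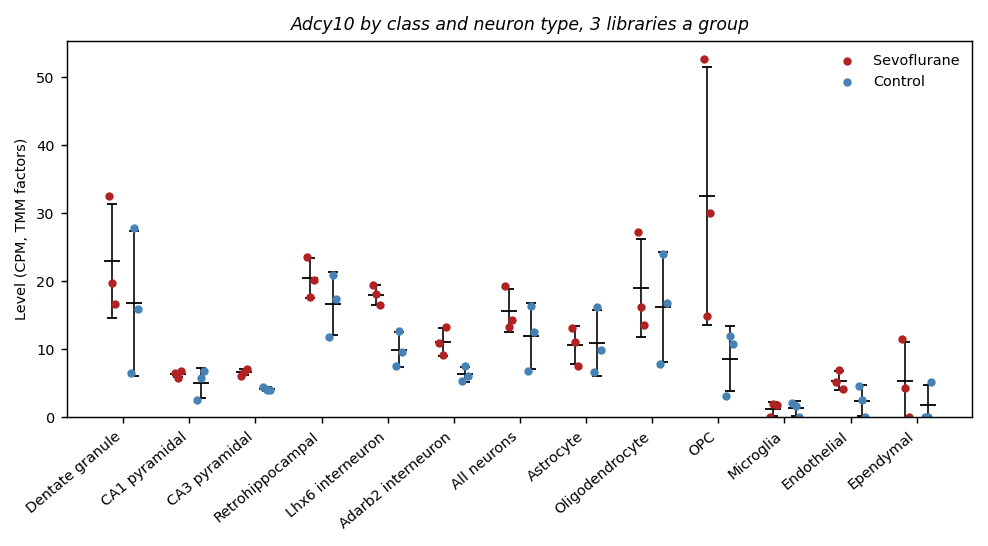
Adcy10 level (CPM, linear axis from 0) by class and neuron type for Sevoflurane (red, left) and Control (blue, right); points are libraries, black marks the mean and SD of 3. Oligodendrocyte precursors (OPC) run from 14.9 to 52.7 CPM in Sevoflurane and from 3.10 to 11.9 CPM in Control.

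**Figure D5:**
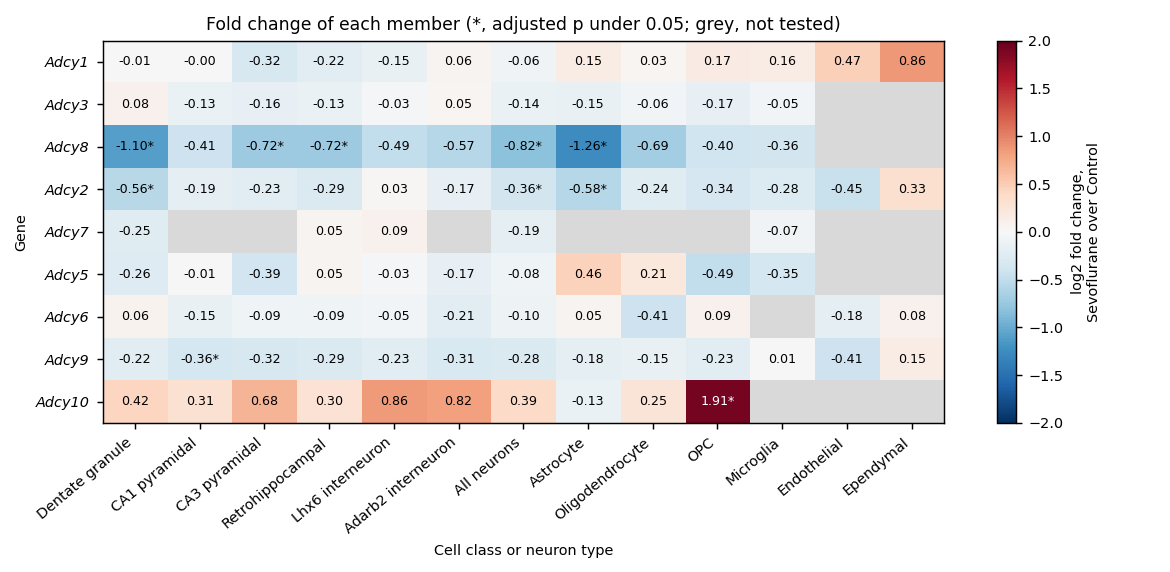
Log2 fold change, Sevoflurane over Control, of each member (rows) in each class and neuron type (columns); blue is lower and red higher in Sevoflurane, an asterisk marks an edgeR adjusted p under 0.05 and grey a member too scarce to test. Adcy2 is marked in neurons, astrocytes and dentate granule neurons, Adcy9 in CA1 neurons and Adcy10 in oligodendrocyte precursors; Adcy8 chose the family, so its marks are descriptive.

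The rest of the cAMP pathway was read from 12 lists of 146 genes. In neurons 13 of 143 genes tested were called, each lower. The median log2 fold change over the 143 was -0.04, beside 0.02 over all genes. The 13 called stand against 2.63% of all genes called lower, and 5 of them were called without Sevoflurane 1. With the span trend removed, 204 of all genes were called lower in neurons, against 497 in the main fit. The pathway genes were not followed with that trend removed, in neurons or elsewhere, so the part of span in their calls was not tested. The phosphodiesterases, which break down cAMP, had 4 of 16 members lower. These were Pde3a (13.5 ± 1.78 CPM in Sevoflurane, 22.1 ± 3.58 CPM in Control), Pde4b (282 ± 32.9 CPM in Sevoflurane, 387 ± 27.3 CPM in Control), Pde1a and Pde7b, with log2 fold changes of -0.71, -0.46, -0.43 and -0.35. The median over the 16 was -0.20. Camk4, a calmodulin-dependent kinase that acts on CREB, fell by 0.48 on the log2 scale (edgeR adjusted p = 0.0187). The receptors Crhr1, Oprm1 and Grm7 were also called lower, and so were Gng12, Akap6, Akap9 and Gucy1a2. None of the 9 protein kinase A genes, the 10 CREB family genes or the 7 G protein alpha subunits was among the 13.

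In dentate granule neurons 10 of 127 pathway genes were called, each lower, of which 5 were called without Sevoflurane 1. They included Pde7b (301 ± 9.22 CPM in Sevoflurane, 409 ± 0.68 CPM in Control), Rapgef2, Camk2d and Gng7, a beta-gamma subunit gene. In CA1 neurons Camk4 alone was called among 126, at 129 ± 4.16 CPM in Sevoflurane and 183 ± 17.1 CPM in Control libraries. In CA3 neurons Pde1a was called lower, with 120 tested. In retrohippocampal neurons Grm3 was the 1 gene called among 132 (-0.45), and it was not called without Sevoflurane 1. The call of Pde1a in CA3 and in Adarb2 lineage neurons was lost without that library too. Lhx6 lineage interneurons had Pde10a (-0.62) lower, with 110 tested, and Adarb2 lineage interneurons had Htr7 (-1.21), Pde1a, Pde4b and Pde3a lower among 104. The share of all genes called lower was 2.47% in granule neurons, 0.91% in CA1, 0.649% in CA3, 0.503% in retrohippocampal, 0.373% in Lhx6 and 0.371% in Adarb2 lineage neurons. In either direction it was 0.748% in retrohippocampal, 0.472% in Lhx6 and 0.43% in Adarb2 lineage neurons.

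In astrocytes 3 of 111 pathway genes were called, each lower. Of all genes tested there, 2.02% were called in either direction and 1.14% lower. All 3 pathway genes were called without Sevoflurane 1 as well. Grm3, a metabotropic glutamate receptor that inhibits cyclases, had the largest difference, at 443.5, 273.4 and 297.1 CPM in Sevoflurane libraries and 854.2, 1463 and 982.2 CPM in Control libraries (log2 fold change -1.71, SE 0.21, edgeR adjusted p = 0.000589). Camk2g (319 ± 31.8 CPM in Sevoflurane, 474 ± 39.8 CPM in Control) and Camk2d (166 ± 7.82 CPM in Sevoflurane, 237 ± 24.9 CPM in Control) were the other two. In oligodendrocyte precursors, where Adcy10 rose, Grm3 (-1.14), Pde7b (-0.69) and Pde4b (-0.52) fell among 95 tested, where 0.789% of all genes were called lower. Grm3 averaged 56.2 CPM in Control precursors and 1100 CPM in Control astrocytes. The 10 astrocyte markers summed to 1524 to 1938 CPM in Control precursors and 14990 to 15780 CPM in Control astrocytes. Whether the Grm3 counts in precursors, or in endothelial cells below, are free RNA was not tested. In oligodendrocytes Pde4b was the gene called among 114 (-0.77), where 0.482% of all genes were called. Endothelial cells had calls in both directions, with Akap12 (2.17), Creb5 (1.73) and Ezr (1.37) higher and Calcrl (-1.27) and Grm3 (-0.88) lower among 83 tested, in log2 fold change. Of these 5, Ezr lost the call without Sevoflurane 1, and the log2 fold change of Akap12 became 1.27. Akap12 stood at 1714 CPM in Sevoflurane 1, at 428.5 and 459.8 CPM in the rest of that group and at 161.7 to 225.8 CPM in Control libraries. The 6 pericyte markers summed to 4202 to 6270 CPM over the libraries of the endothelial class, and their part in these calls was not tested. No member was called there with edgeR among 4 tested, none had an unadjusted p under 0.05, and DESeq2 called 0, while edgeR called 2.32% of all genes tested.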

How the data were processed

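The authors deposited raw UMI counts for each gene in each cell barcode, and the file headers name Cell Ranger 6.1.1. The submitters' processing notes list CASAVA 1.8 and Seurat beside it and give no roles. Build, annotation and strand setting are not given in the sources used here. The libraries were made with the 10x Single Cell 3′ v3.1 kit from cryopreserved suspensions, per the labels' protocols. Any pair of libraries had at most 0.333% of barcodes in common.

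Kept cells had 500 UMIs and 300 genes or more and a mitochondrial share of 20% or less, and the highest Scrublet scores were removed at 0.8% per 1000 cells (scanpy 1.11.5). Leiden clustering at resolution 1 on 2000 variable genes, without the 9 members, gave 35 clusters. Of these, 32 were named by markers, with scoring limits set after the clusters had been seen, and 3 stayed unnamed (3.19% to 8.11% of the cells of a library). UMI counts were summed per library and class or neuron type and tested with edgeR 4.0.16 (quasi-likelihood, TMM, filterByExpr) in R 4.3.3, with Benjamini-Hochberg adjustment over all genes of the class at 0.05. The SE is the fold over the root of its F statistic. Classes were compared by interaction, over 6 pairs of classes and 5 pairs of neuron types, with the library as a block. Fewer cells of a type and less RNA per cell cannot be told apart in total levels, so levels are relative to the UMIs of the class.

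On simulated counts with 200 genes changed by 1 on the log2 scale, recovery was 65.5% in neurons (18875 genes) and 71.5% in astrocytes (12323). It was 75.5% in dentate granule neurons (15469) and 65.0% in oligodendrocyte precursors (9384). Genes called though unchanged numbered 19 in neurons, beside 131 changed genes called, and 11 in astrocytes, beside 143. They numbered 14 in granule neurons, beside 151, and 7 in precursors, beside 130. In each of these the unchanged share of calls was above the threshold on the adjusted p, most so in neurons. Alternatives were RLE size factors, no filter, DESeq2 1.42.0, leaving out each library, the replicate number as a block, doublets kept, resolution 2, at least 1000 UMIs, equal cell numbers per neuron cluster, removal of the trend with gene span (GENCODE M21, 99.53% of gene IDs matched) and, added after seeing the data, leaving out neuron clusters 19 and 34, which came almost wholly from Sevoflurane libraries, and leaving out libraries for pathway genes and the Adcy10 interaction. The text names all 9 members, the called genes of the cAMP lists (at most 4 a list and class by fold) and the 5 genes most like Adcy8 among those with at least 20 CPM in a class. One called gene of these lists is not reported here. The members and lists were chosen with earlier results of these data known. Promoter sequences are from RefSeq on GRCm38.p6.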

Additional observations from a re-analysis of the deposited data

Results flagged for a closer look

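Adcy10 is listed here because its group effect differed between classes in a test of that difference. The log2 fold change, Sevoflurane over Control, was lower in neurons than in oligodendrocyte precursors by -1.54 (SE 0.40, edgeR adjusted p = 0.0376), from 0.39 in neurons and 1.91 in precursors. Without Sevoflurane 1 the difference was -1.16 (edgeR adjusted p = 0.593), and without Control 1 and Control 2 the neuron fold was 0.10 and 0.68. The precursor value rests on 74 UMIs in Sevoflurane and 16 UMIs in Control libraries. Of the Sevoflurane libraries, 1 to 3 held 52.7, 14.9 and 30.02 CPM. Groups of 3 libraries are too small for a test of single outlying libraries.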

How the results depend on the processing

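Of 54 member folds followed over 779 values, 690 kept their direction and their side of the threshold, 60 lost the call, 13 gained one and 16 changed sign. Adcy8 in the cells that chose the family is among these folds, as a description. The 690 include uncalled folds that stayed uncalled. Only a fold called in the main fit could lose a call, so the 60 are not a share of the 779. The 16 were uncalled. With a library left out, 10 changed sign, within -0.40 to 0.30 for Adcy10 in astrocytes, -0.14 to 0.71 for Adcy10 in oligodendrocytes, -0.10 to 0.10 for Adcy9 in microglia, -0.039 to 0.45 for Adcy9 in ependymal cells and -0.077 to 0.12 for Adcy2 in Lhx6 lineage interneurons. At 1000 UMIs Adcy9 was -0.0056 in microglia. With doublets kept, Adcy2 was 0.32 in endothelial cells and -0.57 in ependymal cells, where Adcy1 was -0.011 and Adcy9 -0.18. With the span trend removed, Adcy2 was 0.011 in Adarb2 lineage interneurons.

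Members called, without Adcy8 in the neurons, neuron types and astrocytes that chose the family, numbered 1 in neurons, astrocytes, oligodendrocyte precursors, granule neurons and CA1, and 0 elsewhere. Leaving out a library gave 0 to 1 in neurons, astrocytes, precursors and CA1, 1 in granule neurons and 0 elsewhere. The span trend removed gave 0 in neurons, astrocytes, precursors and CA1. Doublets kept gave 0 in astrocytes and precursors. DESeq2 gave 2 in neurons, 0 in precursors and 1 in CA3 and retrohippocampal neurons. No filter gave 2 in neurons and 1 in oligodendrocytes, CA3 and Lhx6 lineage neurons. RLE factors and equal cluster numbers gave 2 in neurons. The causes were not tested.

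The replicate numbers pair nothing known. Within a class or neuron type, the deviations of same-numbered libraries from their group means in log2 CPM correlated between -0.18 and 0.06. With the replicate block, 0 members were called in neurons, astrocytes, precursors and CA1; Adcy2 in granule neurons passed (adjusted p = 0.0404). Genes called in neurons numbered 162 with the block, 448 with the span trend removed, 1499 with DESeq2 and 46 to 451 without a library, against 789. In granule neurons these were 108, 274, 823 and 130 to 373, against 557, and 271 with equal cluster numbers. In astrocytes 57 to 376 were called without a library, 622 with no filter and 122 with doublets kept, against 249. In CA1 the block gave 61, the span trend removed 90, no filter 379, DESeq2 583 and a library left out 1 to 205, against 167. In precursors the block and the span trend removed gave 10 each, doublets kept 27, no filter 161, DESeq2 168 and a library left out 4 to 97, against 82. Low counts limit Adcy7 and Adcy10 outside the classes where they are highest.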
